A study of Mus musculus with 16 samples.

Results

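Memory CD4+ T cells keep a set of cytokine genes ready for transcription, and 10 of these genes were examined here: Ifng, Tnf, Lta, Il2, Csf2, Il17a, Il4, Il21, Il10 and Tgfb1. They were chosen by name from the 56748 genes of the deposited tables, and all 10 passed the filter on low counts in every comparison. No member differed between knockout and littermate cells of either mouse line at an adjusted p under 0.05. Between the WT cells of the lines, Il10 was 2.38-fold lower and Lta 1.31-fold higher in the HP1α line. These 2 calls among 10 members stand beside 12.8% of all genes called between the WT groups. The Il10 call held in every fit, whereas the Lta call was lost in several.

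The RNA came from memory T cells (CD4+ CD44high CD62L- with little or no CD25) sorted from mouse spleen, 4 samples in each of 4 groups, and was not taken from cells restimulated in culture. HP1α (gene Cbx5) and HP1γ (gene Cbx3) are heterochromatin proteins that bind methylated lysine 9 of histone H3. HP1α KO mice carried a germline deletion made with CMV-cre and were compared with +/+ littermates, whereas HP1γ KO mice carried 2 floxed alleles and Cd4-cre and were compared with floxed littermates without Cre, on a mixed 129/Sv and C57BL/6 background. In that line Cre and the deletion cannot be told apart. Nothing in the labels says that the 4 samples of a group came from separate animals, so that p-values measure the spread between these samples, which may be technical. All mice were young adults, and littermates were matched for sex.

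Each sample held between 26694045 and 40199637 estimated counts. Levels are given as normalized counts (CPM, counts scaled to a common library size) after TMM scaling when 1 gene is compared between samples, and as TPM, which account for gene length, when genes are compared with each other. Sample values are listed from replicate 1 to replicate 4. Cbx3 fell in HP1γ KO cells (47.0 ± 1.77 against 84.3 ± 8.57 CPM, SD, n = 4; log2 fold change -0.82, adjusted p = 0.00150 in the quasi-likelihood test of edgeR, adjusted by Benjamini-Hochberg over all genes tested). Cbx5 was at 27.3 ± 2.88 CPM in HP1α KO and 40.6 ± 9.52 CPM in WT samples (SD, n = 4), a difference that was not called (log2 fold change -0.58, edgeR adjusted p = 0.946) although the groups did not overlap. These values are of RNA. By western blot of naive CD4+ T cells, the study found HP1α protein absent and HP1γ protein almost absent in the respective KO. The 6 genes Cd3e, Cd4, Trbc2, Cd44, Cd2 and Il7r, which mark memory CD4+ T cells, summed to between 2960 and 3480 CPM in all samples. Markers of B cells summed to between 43.2 and 76.7 CPM over 7 genes, those of myeloid cells to at most 132 CPM over 7 genes and those of CD8+ and NK cells to between 61.7 and 105 CPM over 6 genes, and none of these genes was at 0 in every sample. The regulatory T cell gene Foxp3 was present at between 57.6 and 163 CPM in a sort that kept cells with little or no CD25. The 13 early response genes of the T cell receptor, Fos among them, summed to between 8500 and 13100 CPM. Whether the cells were at rest when lysed was not tested.

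Cytokine genes are classed by the helper T cell that secretes their product. Th1 cells make IFN-γ, TNF and lymphotoxin α against intracellular microbes, Th2 cells make IL-4, Th17 cells IL-17A and follicular helper T cells IL-21, whereas IL-10 and TGF-β1 restrain immune responses. Memory cells hold cytokine messages at low levels until the T cell receptor is engaged, and AU-rich elements in the 3′ untranslated region, built from repeats of the pentamer ATTTA, mark many of these messages for rapid decay.

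All 10 members held at least 1 ATTTA in the 3′ untranslated region of their canonical transcript, as did 70.9% of 12567 protein-coding genes that entered the tests. The longer motif TTATTTATT, searched like the pentamer on the transcript strand and overlapping it, was in 5 of the 10 (Tnf with 5 copies, Csf2 with 4, and Il2, Il21 and Lta with 1 each) and in 8.97% of the 12567 genes. Pentamers per kilobase ranged from 3.49 in Il21 to 28.4 in Csf2, against a median of 1.36. The windows of 30 bases that hold the most pentamers are shown, 1 for each member, because they differ in how densely the pentamers are packed. Pentamers are in capitals, and coordinates are those of GRCm39 with the strand of the gene.
Tnf, chr17:35418654-35418683, minus strand: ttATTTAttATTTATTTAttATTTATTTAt
Csf2, chr11:54138151-54138180, minus strand: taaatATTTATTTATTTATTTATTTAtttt
Il2, chr3:37175188-37175217, minus strand: tATTTATTTAaatATTTAactttaATTTAt
Ifng, chr10:118281237-118281266, plus strand: cctATTTAttaatATTTAaaactATTTAta
Il17a, chr1:20804427-20804456, plus strand: ATTTAtatgagctATTTAtgaatctATTTA
Il4, chr11:53503318-53503347, minus strand: atttttaatATTTAtatATTTAtaattcat
Il21, chr3:37277785-37277814, minus strand: ttttatATTTAagacaatgtATTTAttttg
Lta, chr17:35422384-35422413, minus strand: tATTTAtggagagaaaagttaagttATTTA
Il10, chr1:130952121-130952150, plus strand: ctctctccgaaatATTTAttacctctgata
Tgfb1, chr7:25404427-25404456, plus strand: cgcccggggctgtATTTAaggacacctgca
In Tnf, Csf2 and Il2 some pentamers overlapped, whereas Il10 and Tgfb1 had a single pentamer in their richest window. A match is a description of the letters and not a measured site.

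The promoters (250 bases before to 50 bases after the start of the canonical transcript) were searched for 4 short motifs. The TATA box letters TATAAA, on the sense strand, were in 6 of 10 members and in 4.97% of 12567 promoters. The core of NFAT sites, GGAAA on either strand, was in 9 of 10 members and 62.1% of promoters, and the NF-κB letters, GGG and CC with any 5 bases between them, on either strand, were in 8 of 10 and 63.0%. The AP-1 letters TGANTCA were in Il17a alone among the members, and in 5.19% of promoters. The promoter of Il4 is printed because this gene gave the largest knockout difference relative to its error. GGAAA and its complement TTTCC are in capitals.
Il4 promoter, GRCm39 chr11:53509447-53509746, minus strand: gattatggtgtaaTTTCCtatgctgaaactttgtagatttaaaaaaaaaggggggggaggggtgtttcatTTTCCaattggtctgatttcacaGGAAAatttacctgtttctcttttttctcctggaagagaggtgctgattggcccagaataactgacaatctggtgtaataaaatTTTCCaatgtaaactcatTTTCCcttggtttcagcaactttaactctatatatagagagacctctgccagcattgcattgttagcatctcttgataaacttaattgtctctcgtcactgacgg
The Il4 promoter held 5 copies of the NFAT core and no TATAAA.

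The members lie on 6 chromosomes, and some are neighbours. Tnf (chr17:35418357-35420983) and Lta (chr17:35422141-35424327) are separated by 1157 bases, Il2 (chr3:37174672-37180108) and Il21 (chr3:37276908-37286785) by 96799 bases, and Il4 (chr11:53493809-53509496) and Csf2 (chr11:54138097-54140493) by 628600 bases, each pair on the same strand. Ifng lies at chr10:118276951-118281797, Tgfb1 at chr7:25386390-25404506, and Il17a (chr1:20801129-20804720) and Il10 (chr1:130947581-130952711) are far apart on chromosome 1. Some members share bases with other annotated genes, so that part of their reads could be assigned to either. Ifng overlaps Gm49751 on the same strand (mean 9.64 CPM), and the Ifng count was not whole in 100% of samples, as was that of Il2, which overlaps Adad1 on the opposite strand (0.0370 CPM). Il4 overlaps Kif3a on the opposite strand (4.75 CPM). The library kit marks strand, but whether the counting used it is not given in the sources used here.

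Transcript levels spanned about 2 orders of magnitude. Median TPM over the 16 samples was 203 for Tgfb1 (159 to 248), 194 for Ifng (162 to 252), 62.5 for Tnf (44.6 to 74.7), 20.2 for Il10 (9.18 to 44.3) and 16 for Lta (12.8 to 20.6). Below these came Il4 at 9.65 TPM (5.20 to 17.1), Il2 at 8.31 TPM (5.63 to 13.8), Il17a at 5.82 TPM (2.09 to 20.5), Il21 at 4.07 TPM (1.75 to 15.8) and Csf2 at 2.17 TPM (0.983 to 6.06). The step from Ifng to Tnf and the step from Tnf to Il10 held in 16 of 16 samples without overlap of the ranges. All other neighbours in this order overlapped, from Tgfb1 above Ifng in 9 of 16 samples to Lta above Il4 in 15 of 16, so that the order within those pairs is not beyond the spread between samples.

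**Figure D1:**
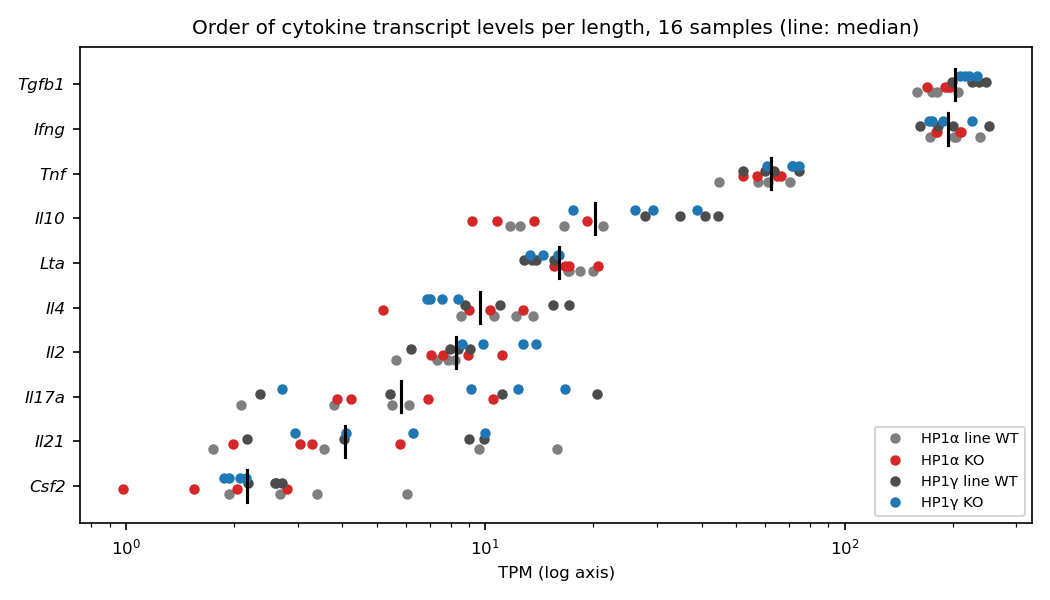
TPM on a log axis for the 10 cytokine genes, 1 point for each of the 16 samples coloured by group, with a line at the median. Tgfb1 and Ifng sit above 150 TPM in all samples, and Il17a and Il21 are the most widely scattered genes.

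The members also differed in how far samples of 1 group lay apart. Within groups the SD of log2(CPM + 0.5) was 0.896 for Il21 and 0.874 for Il17a, larger than that of 99.1% and 99.0% of 12532 genes and far above the SD that counting alone gives (0.0942 and 0.138). At the other end, Lta and Tgfb1 had SDs of 0.127 and 0.138, below the median of 0.157 over all genes. Ifng (0.194) and Tnf (0.186) were slightly above that median, and Il10 (0.386), Csf2 (0.332), Il4 (0.318) and Il2 (0.269) lay between. For Csf2, with 15 to 73 counts in a sample, the counting SD of 0.265 came close to the whole spread.

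Of the Th1 cytokines, 0 were called between KO and WT cells of either line. Ifng, which encodes IFN-γ, was at 142, 134, 116 and 114 CPM in HP1α KO and at 159, 128, 121 and 133 CPM in WT samples of that line. It was at 106, 105, 112 and 143 CPM in HP1γ KO and at 110, 124, 126 and 162 CPM in WT samples of the HP1γ line. All 4 groups overlapped. The log2 fold change in KO was -0.10 (95% interval -0.32 to 0.12) in the HP1α line and -0.15 (-0.43 to 0.14) in the HP1γ line. Tnf, which encodes the inflammatory cytokine TNF, was at 64.8, 62.8, 53.5 and 54.8 CPM in HP1α KO and 68.4, 58.0, 45.4 and 56.3 CPM in WT samples. In the other line it was at 55.7, 64.5, 69.8 and 65.6 CPM in HP1γ KO and 51.9 to 71.5 CPM in WT samples. The Tnf intervals, -0.21 to 0.30 in the HP1α line and -0.15 to 0.33 in the HP1γ line, leave room for only a small change in either direction. Lta, whose product lymphotoxin α acts through TNF receptors and in lymphoid organ formation, changed by -0.05 (-0.27 to 0.17) and by 0.04 (-0.19 to 0.27) on the log2 scale in the HP1α and HP1γ lines.

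**Figure D2:**
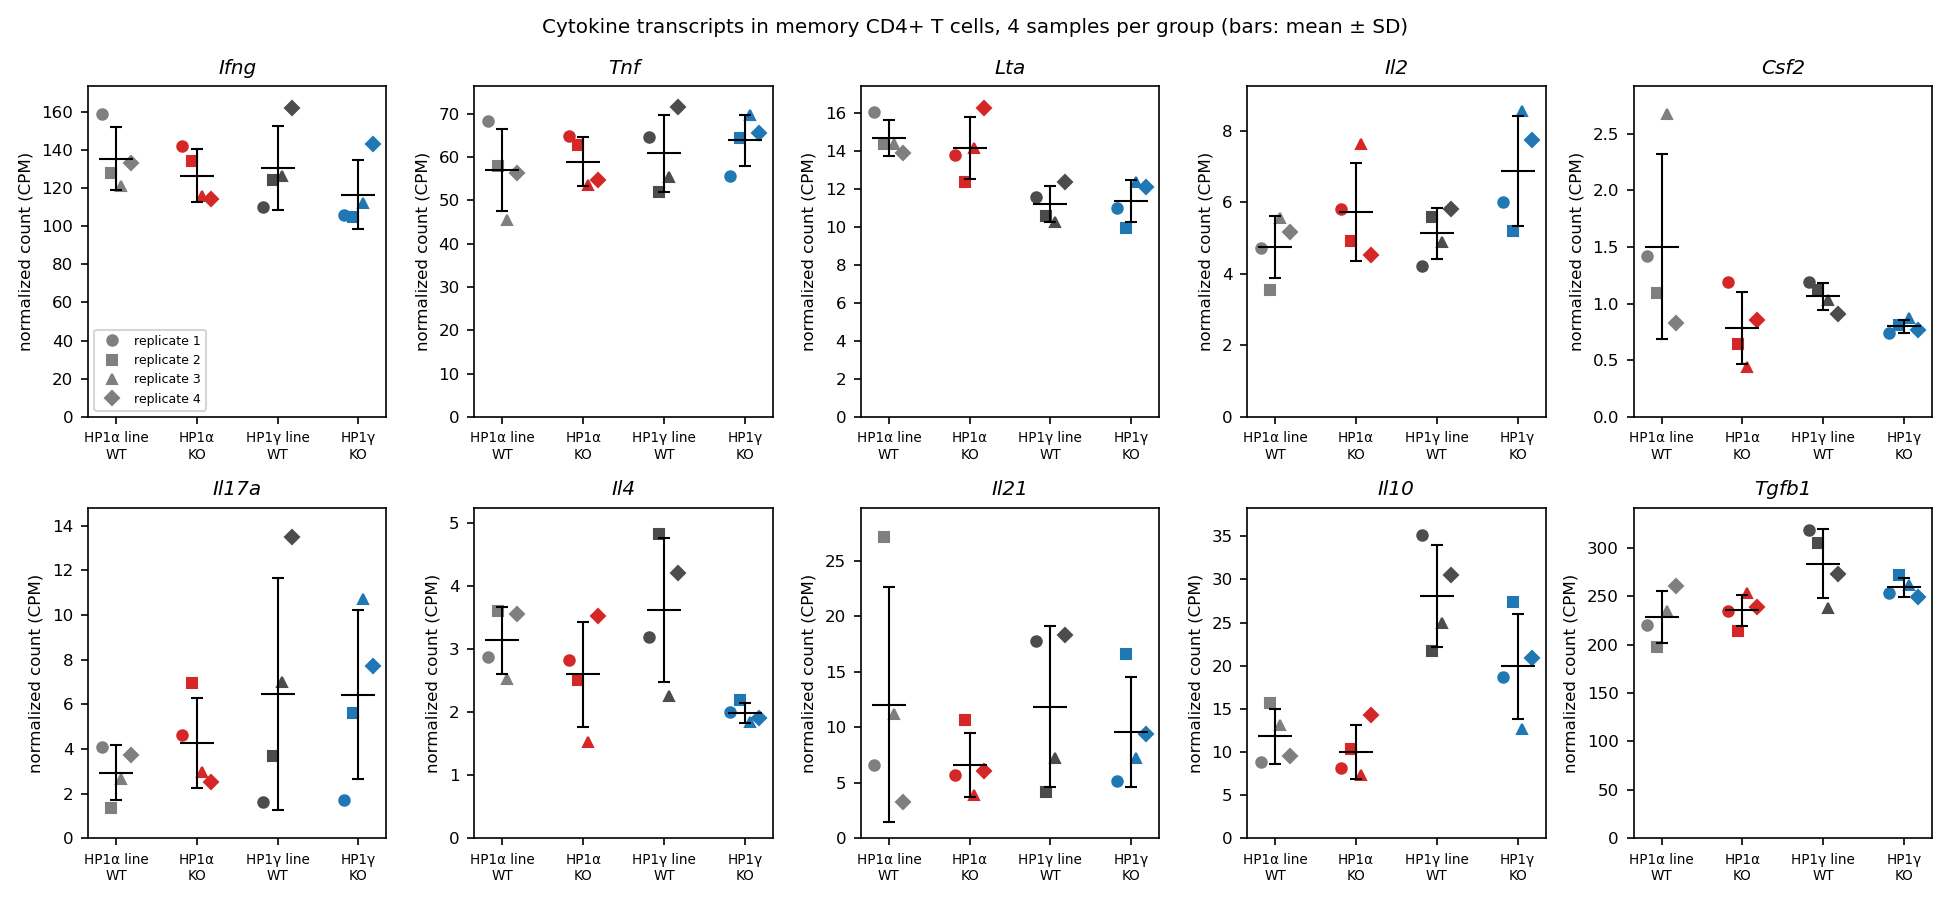
Normalized counts (CPM, linear axis from 0) of each cytokine gene in the 4 samples of each group, with mean ± SD. KO and WT samples of a line overlap for every gene but Il4 and Csf2 in the HP1γ line, and Il10 is higher in both groups of the HP1γ line.

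Among the cytokines that feed other cells, Il2 encodes the T cell growth factor IL-2. It was at 6.02, 5.19, 8.56 and 7.73 CPM in HP1γ KO and at 4.22, 5.59, 4.89 and 5.81 CPM in WT samples of that line. The highest 3 values were those of KO samples, but the groups overlapped. The difference was not called (log2 fold change 0.44, interval 0.05 to 0.84, edgeR adjusted p = 0.385). In HP1α KO, Il2 was at 5.81, 4.92, 7.62 and 4.53 CPM against 4.73, 3.54, 5.57 and 5.16 CPM in WT samples. That difference (0.27, interval -0.18 to 0.71) was not called either.

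Csf2 encodes GM-CSF, a growth factor for granulocytes and macrophages, and was the least abundant member. HP1γ KO samples held 0.743, 0.808, 0.872 and 0.768 CPM and WT samples of that line 1.19, 1.12, 1.03 and 0.909 CPM. The KO values all lay under the WT values, which gives the smallest p that 4 samples against 4 can give (exact permutation test, two-sided, p = 0.0286), but the log2 fold change of -0.39 (interval -0.88 to 0.10) was not called over all genes (edgeR adjusted p = 0.508). In the HP1α line, KO samples were at 1.19, 0.643, 0.441 and 0.854 CPM and WT samples at 1.42, 1.09, 2.67 and 0.824 CPM. These groups overlapped, with 1 WT sample far above the rest. The log2 fold change was -0.93 (interval -1.86 to 0.00, edgeR adjusted p = 0.946), and it was -0.50 without that WT sample (replicate 3).

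Il4, the signature cytokine of Th2 cells, gave the largest knockout difference relative to its error. It was at 2.01, 2.19, 1.84 and 1.90 CPM in HP1γ KO and at 3.19, 4.83, 2.25 and 4.21 CPM in WT samples. All KO samples were below all WT samples and were closely grouped, whereas WT samples varied 2.15-fold. The mean was 1.98 ± 0.154 CPM in KO and 3.62 ± 1.14 CPM in WT samples (SD, n = 4). In the fit, the log2 fold change was -0.85, with a standard error of 0.241 and an interval from -1.38 to -0.31. The exact two-sided permutation test gave its smallest possible p of 0.0286, and edgeR's p of 0.00542 became 0.251 after Benjamini-Hochberg adjustment over all genes. Over 15 alternatives, the adjusted p ran from 0.0594 with DESeq2 to 0.476 without HP1γ KO replicate 1, and the difference stayed between -1.02 and -0.68. Kif3a, which overlaps Il4, was at 4.64 ± 0.898 and 4.80 ± 0.590 CPM (SD, n = 4) in these groups. In HP1α KO, Il4 was at 2.83, 2.51, 1.53 and 3.52 CPM against 2.87, 3.61, 2.53 and 3.55 CPM in WT samples (log2 fold change -0.28, interval -0.83 to 0.28).

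Il17a and Il21 varied so much from sample to sample that only large changes could have been detected. Il17a, the defining cytokine of Th17 cells, was at 1.71, 5.62, 10.7 and 7.73 CPM in HP1γ KO and 1.64, 3.70, 7.02 and 13.5 CPM in WT samples. In the HP1α line it was at 4.62, 6.95, 2.97 and 2.53 CPM in KO and 4.07, 1.35, 2.64 and 3.71 CPM in WT samples. The groups overlapped in both lines. The interval of the log2 fold change ran from -1.33 to 1.37 in the HP1γ line and from -0.32 to 1.39 in the HP1α line, so that a 2-fold change in either direction lies inside the first.

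Il21, which follicular helper T cells supply to B cells, was at 5.73, 10.7, 3.94 and 6.05 CPM in HP1α KO and at 6.62, 27.1, 11.2 and 3.23 CPM in WT samples. HP1γ KO samples held 5.13, 16.6, 7.23 and 9.37 CPM and their WT littermates 17.8, 4.16, 7.20 and 18.3 CPM. Within the WT samples of the HP1α line the values spanned 8.38-fold. The log2 fold change was -0.88 (interval -2.09 to 0.34) in HP1α KO and -0.28 (-1.34 to 0.77) in HP1γ KO. Without WT replicate 2, the sample with the highest value, the HP1α difference was -0.09.

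Neither regulatory cytokine was called between KO and WT cells. Il10, which encodes the suppressive cytokine IL-10, was at 8.16, 10.3, 7.35 and 14.3 CPM in HP1α KO and 8.86, 15.7, 13.1 and 9.54 CPM in WT samples. In the HP1γ line it was at 18.7, 27.4, 12.7 and 20.9 CPM in KO and at 35.1, 21.7, 25.0 and 30.5 CPM in WT samples. KO and WT samples overlapped in each line, though 3 of 4 HP1γ KO samples lay below every WT sample. The log2 fold change was -0.47 (interval -0.95 to 0.01, edgeR adjusted p = 0.431) in HP1γ KO and -0.24 (-0.76 to 0.29) in HP1α KO. Tgfb1, which encodes TGF-β1 and is made in a latent form, was at 253, 272, 262 and 249 CPM in HP1γ KO and 318, 305, 238 and 273 CPM in WT samples, and at 214 to 253 CPM in HP1α KO and 198 to 261 CPM in WT samples. Its log2 fold changes were -0.11 (-0.30 to 0.09) and 0.04 (-0.15 to 0.24).

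Over the 10 members, edgeR's quasi-likelihood test called 0 in the HP1α line, where 0% of 14881 genes were called, and 0 in the HP1γ line, where 0.327% of 14975 genes were. With an absolute log2 fold change above 1 required as well, 0% and 0.234% of genes remained in these lines. Each of the 7 alternatives and each fit without 1 sample also called 0 members. Before adjustment, 0 members in the HP1α line and 2 in the HP1γ line (Il4 and Il2) had a p under 0.05, against 4.27% and 11.9% of all genes. KO and WT values did not overlap for 0 and for 2 members (Il4 and Csf2), against 3.11% and 7.59% of all genes. The median log2 fold change of the members was -0.07 in the HP1α line and -0.13 in the HP1γ line, beside 0.00258 and 0.000495 over all genes. The knockout effect itself did not differ between the lines for any of the 10 members (interaction term, edgeR adjusted p from 0.647 for Il4 to 0.970 for Tnf), while 0.0507% of 15776 genes passed, or 0.0317% with an absolute difference above 1. The closest was Il4, with a difference of 0.58 on the log2 scale (HP1α effect minus HP1γ effect, interval -0.17 to 1.33).

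**Figure D3:**
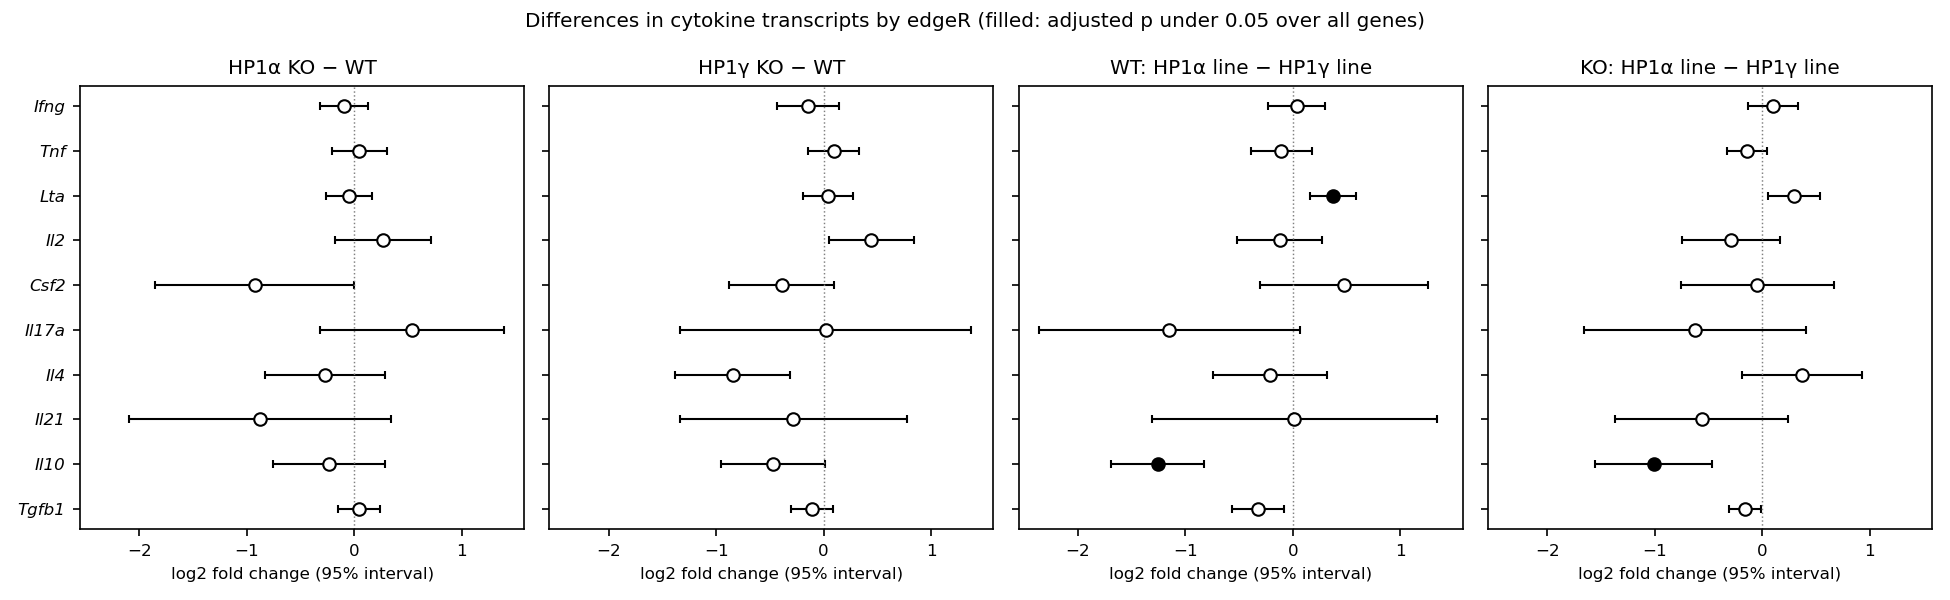
Log2 fold change with its 95% interval for each cytokine gene in 4 comparisons, filled where edgeR called the gene at an adjusted p under 0.05. The filled points are Lta and Il10 between the WT groups and Il10 between the KO groups.

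The WT cells of the lines share their genotype at both HP1 genes apart from the floxed Cbx3 alleles, and they differ in breeding. Differences between them are given as the HP1α line minus the HP1γ line, and line, allele and any processing batch cannot be told apart. Il10 stood out: the WT values of the HP1α line, 8.86 to 15.7 CPM, all lay below those of the HP1γ line, 21.7 to 35.1 CPM. The means were 11.8 ± 3.19 and 28.1 ± 5.96 CPM (SD, n = 4), a log2 difference of -1.26 (standard error 0.198, edgeR adjusted p = 0.00527). The call held under all 7 alternatives and without any single sample, with differences between -1.42 and -1.13. Lta was the other member that passed. It was at 16.1, 14.4, 14.4 and 13.9 CPM in WT samples of the HP1α line and at 11.6, 10.6, 10.3 and 12.4 CPM in those of the HP1γ line, again without overlap. The log2 difference was 0.38 (standard error 0.0965, edgeR adjusted p = 0.0316). This call was lost on the TPM scale, with a replicate block, and without any 1 of 7 samples (adjusted p up to 0.106 without replicate 1 of the HP1α line, and 0.0263 when replicate 4 of the HP1γ line was left out), although the difference stayed between 0.33 and 0.43.

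The calls for 2 of 10 members compare with 12.8% of 14804 genes that passed between the WT groups. Groups that did not overlap were found for 2 of 10 members and 19.6% of all genes. With an absolute log2 difference above 1 required too, Il10 alone among the members and 1.9% of all genes remained. Tgfb1 differed by -0.32 on the log2 scale and missed the threshold (edgeR adjusted p = 0.0759; 0.0417 without replicate 3 of the HP1γ line), while DESeq2 gave an adjusted p of 0.0378 and a joint edgeR fit of all 16 samples 0.0287. Il17a was at 2.94 ± 1.22 against 6.46 ± 5.18 CPM (SD, n = 4) and was not called (log2 difference -1.15, interval -2.36 to 0.06, edgeR adjusted p = 0.189). The 6 others, Ifng, Tnf, Il2, Il21, Il4 and Csf2, differed by between -0.22 and 0.48 and had adjusted p-values of 0.401 or more in edgeR.

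The KO cells of the lines were compared as well, after the WT values had been seen, in samples that the WT comparison does not use. Here the deleted gene differs too. Il10 was lower in the HP1α line in these samples also, at 10.0 ± 3.12 against 19.9 ± 6.06 CPM (SD, n = 4), with a log2 difference of -1.01 (standard error 0.247, edgeR adjusted p = 0.0120). The values touched, since the highest HP1α KO sample (14.3 CPM) was above the lowest HP1γ KO sample (12.7 CPM). It was the only member called, while 32.8% of 15020 genes were, or 4.33% with an absolute difference above 1. Lta, at 13.8, 12.4, 14.2 and 16.3 against 11.0, 9.97, 12.4 and 12.1 CPM, was higher by 0.30 (edgeR adjusted p = 0.0602), and its groups did not overlap, as was so for 32.9% of all genes. It was called without HP1α KO replicate 2 (edgeR adjusted p = 0.0480) and with a replicate block (0.0478). Tgfb1 differed by -0.16 (edgeR adjusted p = 0.0853), and was called without HP1α KO replicate 3 (adjusted p = 0.0379).

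Markers of other T cell types were compared between the lines as well. Summed markers of follicular helper T cells were at 538 to 697 CPM in WT samples of the HP1α line and 631 to 909 CPM in those of the HP1γ line (exact two-sided permutation test, p = 0.114), and at 524 to 672 against 676 to 938 CPM in KO samples, without overlap (p = 0.0286). Icos made up the largest part of the follicular helper sum, at a mean of 363 of 629 against 504 of 778 CPM in WT samples. In KO samples the mean of Icos was 358 against 478 CPM. Of the 6 genes in the sum, 3 were lower and 3 higher in the HP1α line between the WT groups. Only Icos was called there, as lower. In the KO comparison 5 were lower and 1 higher, with 2 called as lower. The sums of 7 regulatory T cell markers overlapped, at 595 to 811 against 638 to 1030 CPM in WT samples. In KO samples they were at 566 to 798 against 689 to 1170 CPM (exact two-sided permutation test, p = 0.143). Taken singly, 5 of the 7 were lower in the HP1α line between the WT groups, with 0 called. Between the KO groups all 7 were lower and 1 was called, beside 32.8% of all genes. The part of either marker list in the Il10 difference was not tested. In bulk RNA, fewer cells of a type and less RNA per cell cannot be told apart.

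The remaining T cell cytokine genes numbered 28, and 20 were detected well enough to be tested. Between the WT groups, 2 passed as higher in the HP1α line (Tgfb3, log2 difference 0.54, and Cd40lg, encoding CD40 ligand, 0.44) and 8 as lower, beside 4.55% and 8.25% of all genes in these directions. The lower ones included the TNF family ligands Tnfsf4 (OX40 ligand, -2.02), Tnfsf11 (RANKL, -1.02), Tnfsf8 (CD30 ligand, -0.93) and Fasl (-0.82). Also lower were Il17f (-1.69), the Th17 cytokine gene related to Il17a, the Th2 cytokine gene Il13 (-1.28), the chemokine gene Xcl1 (-0.96) and Areg (-0.85), which encodes the growth factor amphiregulin. Il17f was at 1.10, 0.382, 0.769 and 1.65 CPM in WT samples of the HP1α line and at 1.22, 3.83, 3.40 and 4.0 CPM in those of the HP1γ line. Only the lowest HP1γ line sample, which was also the lowest for Il17a, reached into the range of the other line. The median of the 20 genes was -0.14, beside 0.02 over all genes.

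Of 19 receptor chains for the members, 3 passed as lower in the HP1α line: the TGF-β receptor Tgfbr2 (-0.40), the IFN-γ receptor Ifngr1 (-0.66) and the TNF receptor Tnfrsf1b (-0.87), with a list median of -0.40. Over all genes, 8.25% passed as lower, and the counts of this and the following lists, 1 to 3 genes each, are to be read beside that share. Of 10 genes that control the decay of cytokine messages, 2 passed as lower, the endonuclease gene Zc3h12a (-0.57; 377 ± 75.4 against 557 ± 18.2 CPM, SD, n = 4) and Elavl1, which encodes an AU-rich element binding protein (-0.22). Of 7 tested genes that process or activate latent TGF-β, Furin, the protease that cleaves its precursor, passed as lower (-0.79). Among 7 lineage transcription factors Prdm1 (-0.48) passed as lower, and of 9 targets of IFN-γ Cxcl10 (-0.78) did. All of these are edgeR calls by the same threshold as for the members.

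In the knockout comparisons, 0 genes of any of these lists passed in either line, nor did any in the interaction. In HP1γ KO the smallest p-values were those of the IL-10 receptor chain Il10ra (0.34, edgeR adjusted p = 0.155), the IFN-γ target Gbp2 (-0.31, adjusted p = 0.188), the cytokine subunit gene Ebi3 (0.49, adjusted p = 0.317) and the transcription factor Maf (-0.24, adjusted p = 0.335). Tnfsf10 (-0.25), Csf2rb (0.96), Elavl1 (0.16), Zc3h12a (0.14), Thbs1 (1.01), Itgav (0.20) and Gata3 (-0.08) had the smallest p of their lists beside these, all with adjusted p-values of 0.367 or more. In HP1α KO the corresponding genes, Fasl (0.19), Tgfb3 (0.20), Csf2rb (0.55), Tgfbr2 (0.12), Rc3h2 (-0.18), Rc3h1 (-0.11), Itgb8 (-0.81), Thbs1 (0.37), Ciita (0.90), Maf (-0.11) and Bcl6 (-0.21), had edgeR adjusted p-values of 0.946 or more. B cell markers were higher in HP1γ KO samples (59.9 to 64.9 CPM) than in their WT littermates (43.2 to 53.2 CPM; exact two-sided permutation test, p = 0.0286), the groups in which Il4 and Csf2 were lower in KO. After removal of each group's mean, the B cell sum had r = -0.30 with Il4 and 0.352 with Csf2. Neither passed (exact permutation within groups, adjusted p = 0.673 and 0.66). The part of the B cell shift in the Il4 and Csf2 differences was not tested.

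Covariation between cytokines was examined after removal of each group's mean, so that differences between groups could not create it. Among 45 pairs of members, 26 had a correlation above 0, the median Pearson's r was 0.04, and 0 pairs had an adjusted p under 0.05 (exact permutation within groups, 331776 permutations, two-sided, Benjamini-Hochberg over 45 pairs). The strongest pairs joined cytokines of different helper classes. Il21 and Il10 rose and fell together (r = 0.722, exact p = 0.00366, adjusted p = 0.165; Spearman's rho = 0.744, exact p = 0.00381, adjusted p = 0.0857), with r = 0.682 in the HP1α line and 0.770 in the HP1γ line, and r = 0.687 without the 2 samples farthest in Il21. Il2 and Il10 moved in opposite directions (r = -0.729, exact p = 0.00777, adjusted p = 0.175; rho = -0.647, exact p = 0.0251, adjusted p = 0.376), with r = -0.732 and -0.727 in the lines and -0.619 without the 2 farthest samples.

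Ifng deviated together with Il17a (r = 0.706, exact p = 0.0140, adjusted p = 0.210; rho = 0.776, exact p = 0.00302, adjusted p = 0.0857), at 0.697 and 0.720 within the lines and 0.606 without the 2 farthest samples. Ifng and Tnf, both Th1 cytokines, gave r = 0.642 (exact p = 0.0189, adjusted p = 0.213; rho = 0.582, exact p = 0.0434, adjusted p = 0.391) and 0.623 without the 2 farthest samples, but r was 0.909 in the HP1α line and 0.442 in the HP1γ line. These 4 were the only pairs with an unadjusted p under 0.05. With a replicate block, r was -0.0686 for Ifng and Tnf. It was 0.645 for Ifng and Il17a, 0.875 for Il21 and Il10 and -0.953 for Il2 and Il10. The neighbours Tnf and Lta had r = 0.32, Il4 and Csf2 had r = 0.00388, and Il2 and Il21 had r = -0.51, so that in no neighbouring pair did the members rise and fall together closely.

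**Figure D4:**
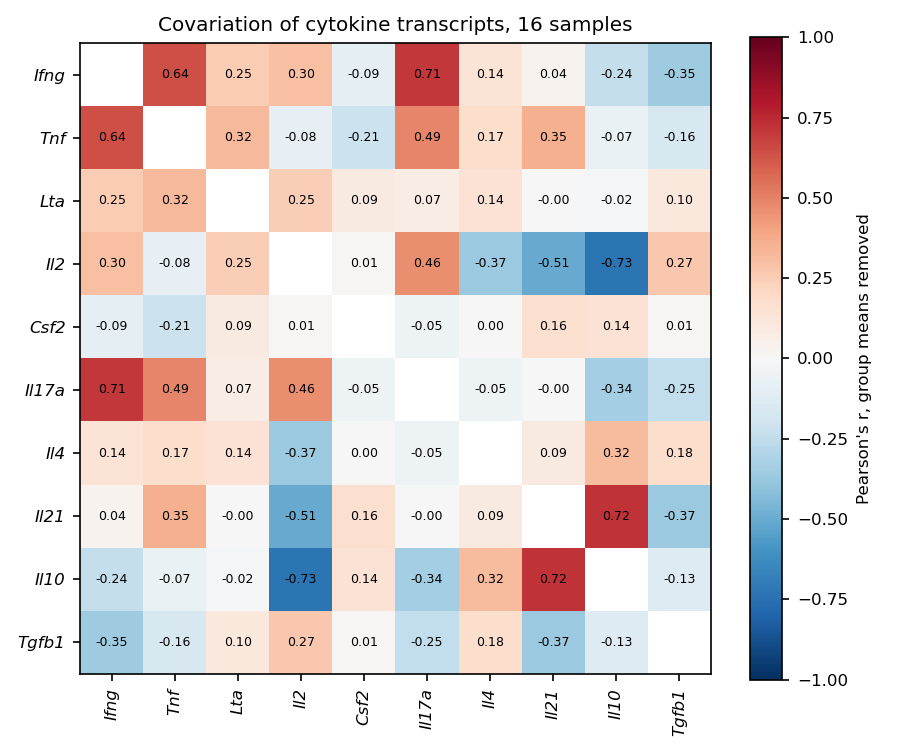
Pearson's r between the cytokine genes over 16 samples, computed on log2(CPM + 0.5) after the mean of each group was removed. The strongest cells are Il2 with Il10 (-0.73), Il21 with Il10 (0.72), Ifng with Il17a (0.71) and Ifng with Tnf (0.64).

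**Figure D5:**
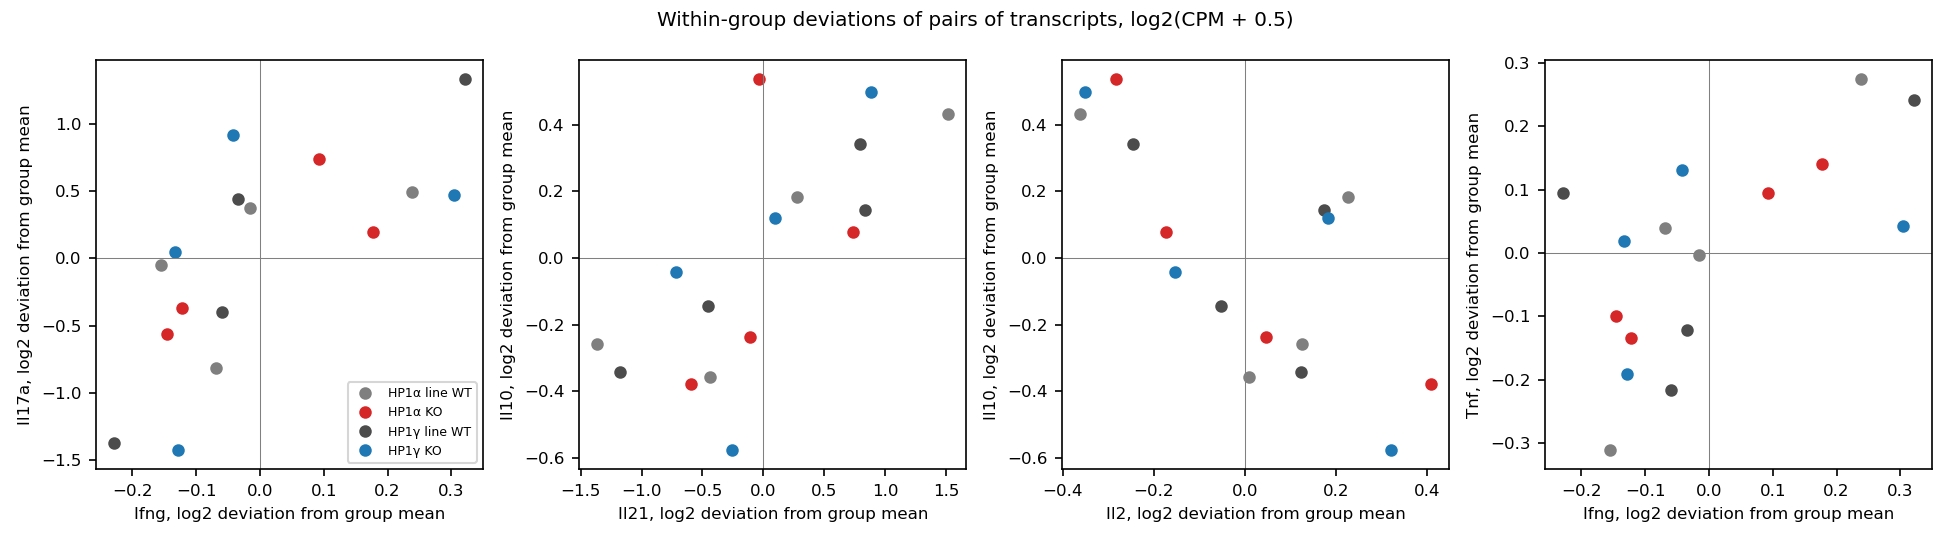
Deviation of each sample from its group mean, in log2(CPM + 0.5), for the pairs Ifng and Il17a, Il21 and Il10, Il2 and Il10, and Ifng and Tnf, 16 samples coloured by group. Il2 and Il10 deviate in opposite directions (r = -0.729), and the members of the other pairs deviate together.

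Each member was then set against 7 transcription factors that direct helper lineages, in 70 relations. Those described here failed the adjustment: Tgfb1 with the regulatory T cell factor Foxp3 (r = 0.674, exact p = 0.00214, adjusted p = 0.0749), Il10 with Bcl6, the factor of follicular helper cells (r = 0.699, exact p = 0.00873, adjusted p = 0.192), and Il21 with Maf (r = 0.766, exact p = 0.0110, adjusted p = 0.192). Tbx21, the Th1 factor, and Gata3, the Th2 factor, reached no adjusted p under 0.05 with Ifng, Il4 or any other member. Against the summed markers of other cell types, early T cell receptor response genes and total counts, 0 of 80 relations passed, and 14 had an unadjusted p under 0.05. These included Tnf with the myeloid sum (r = -0.736, exact p = 0.00552, adjusted p = 0.249), Il17a with the early response sum (r = 0.716, exact p = 0.00698, adjusted p = 0.249) and Ifng with the regulatory T cell sum (r = -0.690, exact p = 0.0139, adjusted p = 0.249). Il10 gave r = 0.641 with the regulatory T cell sum and 0.603 with the follicular helper sum (adjusted p = 0.249 for each, exact permutation). Il4 and total counts had r = 0.435, and Il10 and total counts had r = -0.00121.

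Over genes with a mean of at least 5 CPM, those whose deviations were most like each member were listed, as a description over 16 samples that share libraries and depth. Tnf was closest to the immediate early gene Fos (r = 0.938) and to Lcp2 (0.921), which encodes the T cell receptor adaptor SLP-76, and then to Proser3 (0.887). Il21 was closest to Coro2b (0.953), the B cell coactivator gene Pou2af1 (0.952) and Phactr2 (0.951), and Il10 to Kif13a (0.832), Cxcr5 (0.824), the chemokine receptor of follicular helper cells, and Twsg1 (0.823). Nearest to Il17a were Sh3gl1 (0.934), Adamts10 (0.926) and Acap1 (0.909), and nearest to Ifng were Adck2 (0.888), Pola2 (0.885) and Fam219b (0.879).

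For Il2 the closest genes were Tle5 (0.889), the potassium channel gene Kcnk5 (0.884) and Gm45552 (0.880). Il4 was nearest to Pmpca (0.843), to Zbtb16 (0.838), which encodes PLZF, the factor of innate-like T cells, and to Sesn3 (0.790). Csf2 was nearest to 9130401M01Rik (0.814), the replication factor gene Rfc5 (0.773) and Gtse1 (0.741). Lta was nearest to Plp2 (0.776), Coq10a (0.758) and Ascc1 (0.752), and Tgfb1 to Rhog (0.913), Traf4 (0.910) and Sap18 (0.902). With 9744 or 9745 genes compared, high values of r arise for any gene, and these carry no test.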

How the data were processed

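Polyadenylated RNA of 16 samples was sequenced from a stranded mRNA library kit. Reads were passed by the authors through Trim Galore, STAR (on GRCm39) and Salmon, and what they deposited is estimated counts for each gene, not normalized, together with TPM. The treatment label mentions a cell transfer, unlike the study's methods, and was set aside. Groups came from the sample titles. The members and gene lists were chosen with earlier results of these data known, and the KO groups of the lines were compared after the WT results were seen.

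Estimated counts were rounded and tested with edgeR 4.0.16 in R 4.3.3 (TMM, filterByExpr with a minimum count of 10, glmQLFit, glmQLFTest, Benjamini-Hochberg over all genes tested), with the samples of each comparison in 1 fit and all 16 in the interaction. Alternatives were DESeq2 1.42.0, RLE size factors, no filter, limma 3.58.1 on log2(TPM + 1) and log2(TPM + 0.1), a replicate block, 1 fit of all samples and leaving out each sample. The code was tested on simulated data. Correlations used log2(CPM + 0.5). Loci and sequences are from GENCODE on GRCm39, a release other than the one used for counting, in which 56017 of the gene identifiers were found. All 10 members, the listed genes that passed (otherwise the 2 of each list with the smallest p) and the 3 genes closest to each member are named, except that some items, with the results that need them, are not reported here. DEG stands for a gene whose adjusted p is under 0.05 and whose fold change is above 1 on the log2 scale in either direction. Precision is limited by counts of 15 to 73 for Csf2 and 46 to 445 for Il17a in a sample.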

Additional observations from a re-analysis of the deposited data

How the results depend on the processing

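Of the members' knockout differences, 0 were called under any setting. Il10 between the WT groups kept its call in all of them. Lta between the WT groups lost its call with limma on log2(TPM + 1) (adjusted p = 0.0596), on log2(TPM + 0.1) (0.0535) and with a replicate block (0.0835), so that members past the test numbered 1 under each of these and 1 to 2 with a sample left out. The cause was not tested. Members called between the KO groups numbered 1, and 1 to 2 with a sample left out. DEG in the HP1α KO comparison rose from 0 to 2 with DESeq2 and 1 with no filter, limma on log2(TPM + 1) or limma on log2(TPM + 0.1), and were 0 to 3 with a sample left out. In the HP1γ KO comparison there were 35 DEG, 97 with DESeq2, 18 with limma on log2(TPM + 1) and 23 (without HP1γ KO replicate 1) to 32 with a sample left out. Between the WT groups there were 282 DEG, 102 with limma on log2(TPM + 1), 1896 by adjusted p alone, and 122 to 343 with a sample left out (lowest without HP1γ WT replicate 1, and 136, 177 and 137 without HP1α WT replicates 1 and 2 and HP1γ WT replicate 2). The interaction gave 5 DEG, 38 with DESeq2, 11 with no filter, 8 with limma on log2(TPM + 1), 8 by adjusted p alone and 5 to 9 with a sample left out. Relations with lineage factors past the test numbered 1, 4 on log2(TPM + 0.1), 4 with group means kept, 0 within the HP1α line, 0 within the HP1γ line and 0 to 2 with a sample left out. Those with marker sums numbered 0, 1 on log2(TPM + 0.1) and 3 with group means kept.

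The replicate numbers were not taken to pair the samples, since not every correlation between deviations of same-numbered samples was over 0.1. These were 0.0484 to 0.45 between KO and WT in the HP1α line and 0.041 to 0.219 in the HP1γ line, all above 0, and -0.211 to -0.112 between the WT groups. With the replicate block, DEG numbered 125 between the WT groups and 10 in the interaction, members called between the KO groups 2, and relations with lineage factors 0. The block raised the genes with an unadjusted edgeR p under 0.05 from 635 to 1025 in the HP1α KO comparison. In the HP1γ KO comparison it raised them from 1784 to 2462. Whether same-numbered samples share a litter or batch was not tested.

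Small differences that were not called changed sign. Il21 between the WT groups was -0.0031 with DESeq2 and -0.19 with the replicate block, and the Ifng interaction was -0.0022 with limma whichever pseudocount was added to TPM. With a sample left out, the HP1α KO difference ran from -0.125 to 0.0080 for Lta, -0.0225 to 0.113 for Tgfb1 and -0.0447 to 0.14 for Tnf, and that of HP1γ KO from -0.33 to 0.65 for Il17a, -0.68 to 0.00062 for Il21 and -0.00030 to 0.0982 for Lta. Between the WT groups the range was -0.0460 to 0.16 for Ifng, -0.21 to 0.0031 for Il2 and -0.76 to 0.33 for Il21, and between the KO groups -0.32 to 0.15 for Csf2. In the interaction it was -0.0601 to 0.17 for Ifng, -0.12 to 0.88 for Il17a, -0.91 to 0.20 for Il21 and -0.13 to 0.0650 for Tnf.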

Other observations

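For Il21 in WT samples of the HP1α line, normalized counts of 6.62, 27.1, 11.2 and 3.23 CPM stood beside 3.55, 15.8, 9.63 and 1.75 TPM. Replicate 3 had more TPM for its counts than the other samples did.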
